A study of Mus musculus with 4 samples.

Results

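Splenic natural killer (NK) cells that carry the receptor DNAM-1 were compared between spleen with acute myeloid leukaemia (AML) and spleen labelled normal. The comparison holds 2 libraries, DNAM-1+ NK cells from AML spleen at day 17 and DNAM-1+ NK cells from normal spleen at day 0. A gene belonged to it when it was protein-coding and reached 5 FPKM (fragments mapped to the gene, scaled to transcript length and to the library's total) in the higher of the 2 libraries. That rule kept 8324 of the 15844 protein-coding genes listed in any of the 4 libraries of the series. Each gene was described by the log2 ratio of AML to normal after 1 FPKM was added to both values, called the log2 ratio below. For a gene that reached 5 FPKM in only 1 of the 2 libraries, the sign of the ratio was fixed by that rule. With 1 library a side there is no replicate check, so no ratio carries a test, and leukaemia and day cannot be told apart.

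All mice were C57BL/6J, aged 6 to 8 weeks. Green fluorescent MLL-AF9 leukaemia cells taken from sick animals were passed into recipients that had not been irradiated, so each host kept its own blood and immune cells. The leukaemia was lethal at 35 to 40 days, and day 17 therefore precedes death. The labels call the day 0 spleen normal, while the treatment text speaks of leukaemia mice at both days. Whether day 0 animals had received leukaemia cells is thus not settled by the labels, and normal below means the library so labelled. They give the sort as NK cells with or without DNAM-1, and the other gates, the purity and the number of mice behind a library are not given in the sources used here. DNAM-1- NK cells from the same 2 kinds of spleen make up the other 2 libraries, and their AML to normal ratio, which shares no library with the DNAM-1+ ratio, is set beside it.

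DNAM-1, encoded by Cd226, is an activating receptor that binds CD155 and CD112 on stressed and malignant cells. NK cells kill with perforin and granzymes and secrete interferon-gamma and the chemokines CCL3, CCL4, CCL5 and XCL1. Type I interferon reaches them through IFNAR and a transcription factor complex that contains IRF9 and binds a response element in the promoters of antiviral genes. Receptor triggering or other stimulation switches on immediate early genes such as the AP-1 subunits Fos and Jun within minutes, and MAP kinase phosphatases then shut the signal down. The inducible Hsp70 genes Hspa1a and Hspa1b are switched on by HSF1 when proteins unfold, as in heat.

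The 2 libraries differed little over most genes, and 4 groups of genes are described first. The 2 inducible Hsp70 genes were far lower in AML spleen, interferon-stimulated genes and cell cycle genes were lower as groups, and AP-1 and other immediate early genes, with the chemokines Ccl4 and Ccl3, were higher. The median log2 ratio over the 8324 genes was 0.01, the middle 50% lay between -0.10 and 0.11, and 98.7% were within 1.5-fold. Ratios above 0 made up 52.5% of the 8324 and ratios below 0 made up 47.3%, the shares to set beside the list counts that follow. At least 2-fold higher in AML spleen were 3 genes (0.036% of those compared), and at least 2-fold lower were 11 (0.132%). A 1.5-fold threshold, added after the data were seen, gave 31 higher genes (0.372%) and 81 lower ones (0.973%). Of the 31 higher genes, 26 lay beyond the counting interval of their own ratio, as did 70 of the 79 lower genes with a transcript length. The same ratios picked these genes, so the counts are no independent check of them. The 95% counting interval, written ± below, was worked out from the estimated fragments behind each value and covers counting error only, not differences between mice. Its width leaves out the added 1 FPKM, which the ratio at its centre includes and which draws low genes toward 0. For genes of few FPKM, being within or beyond the interval is therefore approximate and can change without the added 1 FPKM.

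**Figure D1:**
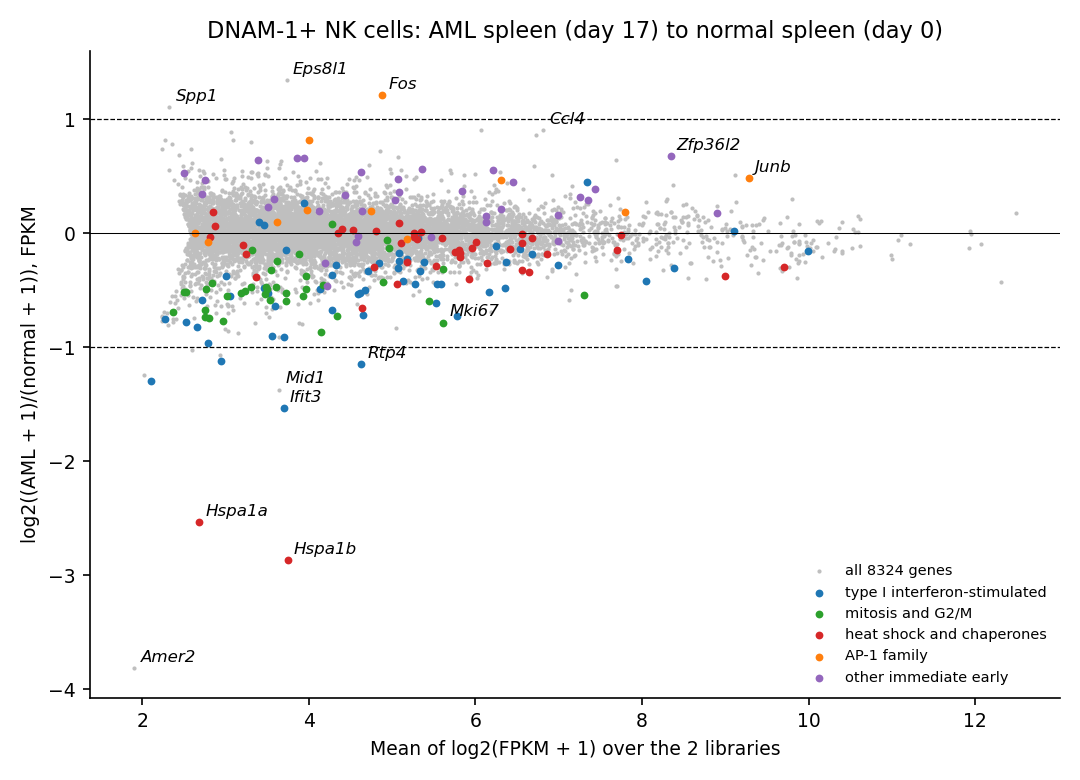
Each point is 1 of 8324 protein-coding genes in DNAM-1+ NK cells, with the mean log2(FPKM + 1) of the 2 libraries on the horizontal axis and the log2 ratio of AML to normal on the vertical axis; dashed lines mark 2-fold. Most genes lie close to 0 at every level, Hspa1a and Hspa1b stand at -2.53 and -2.87, and Amer2, listed at 0 in the AML library, takes its value from the added 1 FPKM.

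Depth was estimated from the files at 8700000 to 9000000 fragments a library. The sort held in the data: Cd226 was at 38.6 FPKM in DNAM-1+ normal and 36.1 in DNAM-1+ AML cells, against 0.45 and 0.58 in the DNAM-1- libraries. The NK receptor genes Ncr1 and Klrb1c were high throughout, Ncr1 at 573 and 597 FPKM and Klrb1c at 370 and 422 in the normal and AML DNAM-1+ libraries. Other cell types also left RNA. Of 19 B cell genes, 16 were higher in the DNAM-1+ AML library, with a summed level of 408 FPKM in normal and 439 in AML, and of 21 dendritic cell and MHC class II genes 18 were higher, summing to 1092 and 1269. Of 21 non-classical monocyte genes 15 were higher in AML, summing to 1072 and 1179 FPKM, and of 19 classical monocyte genes 12 were, with sums of 886 and 882. The monocyte and macrophage genes Lyz2 and Csf1r were at 29.3 and 41.9 FPKM (0.50 ± 0.20) and at 7.31 and 9.84 (0.38). Neutrophil genes went the other way, from 169 to 131 FPKM, with 4 of 22 higher in AML. Markers of the leukaemia and of myeloid progenitors summed to 68.4 and 76.8 FPKM, 17 of 26 being higher in AML. Of the 6 that reached 5 FPKM, 1 had a log2 ratio above 0 and 5 below, with a median of -0.04. The 1 above 0 was Kit, at 17.9 and 25.3 FPKM, which is also on the list of immature NK genes. The defining genes of the leukaemia were low but higher in AML spleen, Mpo at 0.25 and 1.58 FPKM, Elane at 0.12 and 0.24 and Hoxa9 at 0.04 and 0.32. None of the defining markers of other cell types was listed at 0 in either DNAM-1+ library. In such bulk RNA, fewer cells of a type and less RNA per cell cannot be told apart.

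**Figure D2:**
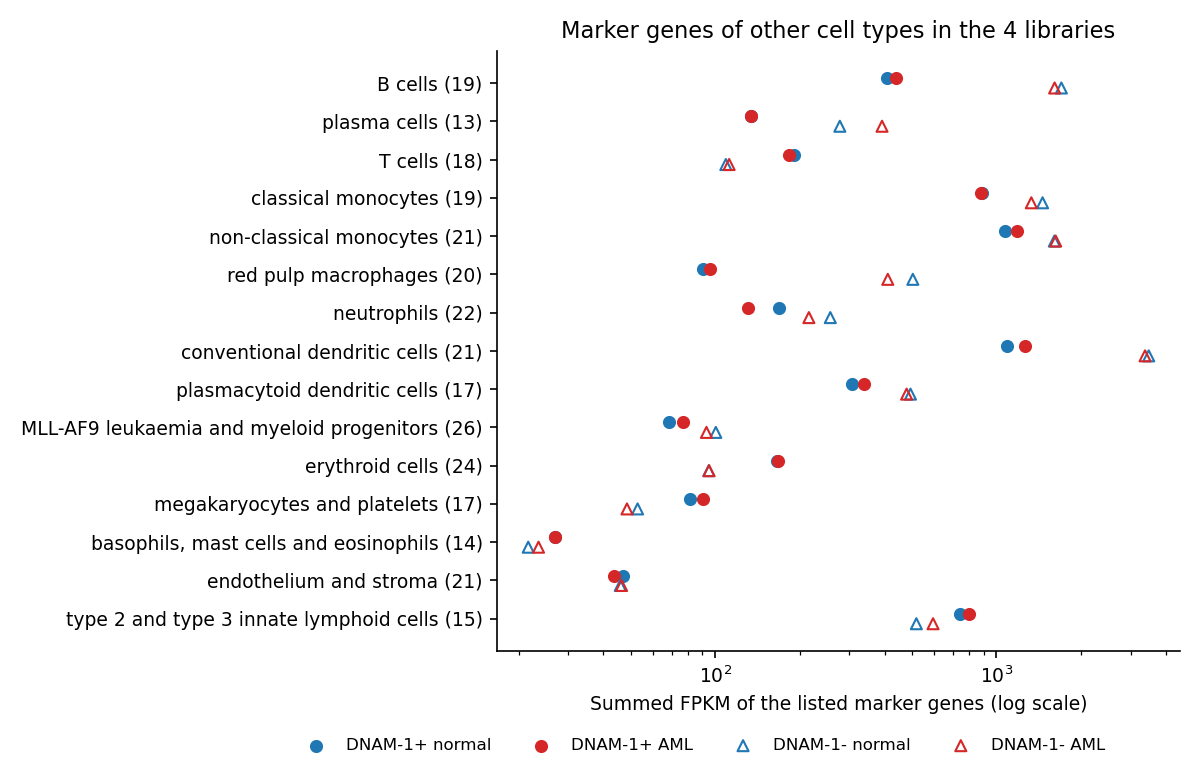
The summed FPKM (log scale) of marker genes of 15 other cell types is shown for each of the 4 libraries, with the number of listed markers in brackets. DNAM-1+ libraries (filled circles) held less B cell, macrophage and dendritic cell RNA than DNAM-1- libraries (open triangles), and within the DNAM-1+ pair the neutrophil sum was lower in AML, 131 against 169 FPKM.

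The inducible Hsp70 genes gave the widest difference among genes present in both libraries. Hspa1b (NCBI Gene 15511) was at 35.3 FPKM in the DNAM-1+ normal library and 3.97 in the DNAM-1+ AML library, a log2 ratio of -2.87 ± 0.30. Its neighbour Hspa1a was at 14.4 and 1.67 FPKM, -2.53 ± 0.45, or -1.54 with 5 FPKM added in place of 1. Because the 2 genes encode nearly the same protein, fragments can be assigned to the wrong copy, and their sum is the safer value. Together they stood at 49.7 FPKM in normal and 5.64 in AML spleen, 8.81-fold lower. In DNAM-1- cells the sum started higher, at 177 FPKM, and was 18.2 in AML spleen, 9.78-fold lower. In each subset, then, the AML library was the low one, and the lowest of the 4 sums was that of DNAM-1+ AML cells.

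The promoters of the pair are shown because they carry the heat shock element that HSF1 reads. RefSeq's promoter table (GRCm38.p6) gives the bases before each annotated start, and the 250 bases of the 2 genes were identical at 247 positions. The motif GAANNTTC, the basic units of the element facing each other, searched on both strands, occurred once in each and is in capitals. The windows lie on the minus strand at chr17:34959294-34959383 for Hspa1b and chr17:34972212-34972301 for Hspa1a.
Hspa1b: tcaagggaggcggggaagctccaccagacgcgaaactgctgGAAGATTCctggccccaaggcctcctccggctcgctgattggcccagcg
Hspa1a: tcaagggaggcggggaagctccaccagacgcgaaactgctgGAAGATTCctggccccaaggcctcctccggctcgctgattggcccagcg
Of 36 genes of the heat shock and chaperone list with a promoter in the table, 8 (22.2%) held GAANNTTC in their 250 bases, against 6.0% of the 6814 compared genes with a promoter. Across the other lists searched, matches ran from 0 of 25 promoters (other immediate early genes) to 2 of 10 (AP-1 genes). Interferon-stimulated genes had a share of 13.6%. The heat shock share was thus close to that of the small AP-1 list. A match is a run of letters, not a measured binding site.

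The rest of the heat shock and chaperone list differed far less. Of 43 members at 5 FPKM, 34 had a ratio below 0 and 9 above, with a median of -0.14, and 3 were at least 1.5-fold lower. Beside the Hsp70 pair the third was Hsph1, the large Hsp110 chaperone that serves as nucleotide exchange factor for Hsp70, at 30.3 FPKM in normal and 18.9 in AML cells (-0.65 ± 0.16). Its DNAM-1- values were 32.8 and 20.8 FPKM, nearly the same step. Fkbp5, an Hsp90 co-chaperone and glucocorticoid target, was at 37.9 and 27.6 FPKM (-0.45 ± 0.13). The constitutive Hsc70 gene Hspa8 was at 926 and 754 FPKM (-0.30 ± 0.03). Dnajb1, an Hsp40 that is itself induced by heat, was at 26.7 and 27.1 FPKM in DNAM-1+ cells (0.02 ± 0.15) and at 37.5 and 27.4 in DNAM-1- cells (-0.44 ± 0.14). Over the whole list the DNAM-1- median was -0.09, again with 3 members at least 1.5-fold lower.

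Type I interferon-stimulated genes were lower in AML spleen across most of the list. Of 56 members at 5 FPKM, 51 had a ratio below 0, 15 were at least 1.5-fold lower, 4 were at least 2-fold lower, and none was 1.5-fold higher. Ifit1, Oasl1, Oasl2, Cmpk2, Slfn1, Ifi204 and Ifih1 were under 5 FPKM in AML cells, so their ratios could only be below 0. Their median log2 ratio was -0.43, against 0.01 for all compared genes, of which 52.5% had a ratio above 0. In DNAM-1- cells the median was -0.46 and 57 of 58 members were below 0.

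Ifit3 (NCBI Gene 15959), an antiviral tetratricopeptide protein, led the list. It was at 21.1 FPKM in DNAM-1+ normal and 6.62 in DNAM-1+ AML cells, -1.54 ± 0.32, and at 20.4 and 7.35 in DNAM-1- cells, -1.36 ± 0.31. Both AML libraries were thus below both normal ones. Rtp4, a chaperone of G-protein-coupled receptors with antiviral activity, was at 35.7 and 15.6 FPKM (-1.15 ± 0.27). The oligoadenylate synthetase-like genes Oasl1 and Oasl2 were at 10.4 and 4.24 FPKM (-1.12 ± 0.37) and at 5.74 and 1.74 FPKM (-1.30 ± 0.89). In the DNAM-1- pair all of these were past 2-fold on the lower side too. With 5 FPKM added in place of 1, the DNAM-1+ ratios of Rtp4, Oasl1 and Oasl2 were -0.98, -0.73 and -0.67, short of 2-fold, while Ifit3 was at -1.17.

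Transcription factors, an RNA sensing helicase and antiviral effectors were among the lower genes. Of the transcription factors, Irf7, which amplifies interferon output, was at 69.6 FPKM in normal and 41.7 in AML cells (-0.73 ± 0.14). Irf9, a subunit of the complex that binds the interferon response element, was at 56.1 and 36.4 FPKM (-0.61 ± 0.13). The RNA helicase Dhx58, which tunes RNA sensing, was at 16.9 and 8.49 FPKM (-0.91 ± 0.26). Among effectors, Oas3, which activates RNase L, was at 15.1 and 7.61 FPKM (-0.90 ± 0.26), and Cmpk2, a mitochondrial nucleotide kinase, at 8.69 and 3.97 (-0.96 ± 0.32). The ubiquitin-like Isg15 was at 31.3 and 18.6 FPKM (-0.72 ± 0.33). Each of these had a ratio below 0 in DNAM-1- cells as well, from -0.39 for Isg15 to -1.13 for Oas3. Mx1, which the RefSeq table gives as a transcribed pseudogene and which is therefore not counted, was at 16.7 and 7.89 FPKM in DNAM-1+ cells and at 21.6 and 8.65 in DNAM-1- cells. Marker genes of plasmacytoid dendritic cells, Irf7 among them, summed to 308 and 339 FPKM in the DNAM-1+ normal and AML libraries. Ly6c2, which is also on the mature NK list, was at 137 and 188 FPKM, a larger rise than that of the whole sum. The direction of the sum therefore rests on Ly6c2 so long as Irf7, itself lower in AML, is counted in it. Of the 10 such markers at 5 FPKM, 6 were above 0 and 4 below, with a median of 0.20. The part of plasmacytoid dendritic cells in the ratios of interferon-stimulated genes was not tested.

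The receptors and the interferon-gamma arm differed less. Of 24 genes for interferon, IL-12 and IL-18 receptors and their signalling, none was 1.5-fold different, 18 were above 0 and the median was 0.05. Ifnar1, a chain of the type I interferon receptor, was at 37.8 FPKM in normal and 41.0 in AML cells (0.11 ± 0.13). Irf1, a transcription factor induced by interferon-gamma, was at 172 and 145 FPKM (-0.25 ± 0.12). The interferon-inducible GTPases, which respond strongly to interferon-gamma, had a median of -0.21 with 11 of 15 below 0 and none at 1.5-fold. Gbp6 was the lowest of them, at 19.3 and 13.4 FPKM (-0.50 ± 0.21), and Irgm1 was at 33.6 and 24.7 (-0.43 ± 0.17).

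Promoter windows of 3 of the lower genes are shown because they hold the letters of the interferon-stimulated response element, GAAANNGAAA on either strand, in capitals. Where the window reads the other strand the same motif appears as runs of T and C, and overlapping copies in Isg15 merge into 1 run. The windows are chr19:34583350-34583439 on the plus strand for Ifit3, chr4:156200841-156200930 on the minus strand for Isg15 and chr5:120777685-120777774 on the minus strand for Oas3, in RefSeq GRCm38.p6.
Ifit3: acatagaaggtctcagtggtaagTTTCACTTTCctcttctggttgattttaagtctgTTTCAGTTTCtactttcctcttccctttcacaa
Isg15: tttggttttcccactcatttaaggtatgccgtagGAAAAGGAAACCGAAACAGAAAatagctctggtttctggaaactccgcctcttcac
Oas3: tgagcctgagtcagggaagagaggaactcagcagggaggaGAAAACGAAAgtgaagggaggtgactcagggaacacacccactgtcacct
The motif lay in the 250 bases of 15 of the 44 list members with a promoter (34.1%) and of 3.6% of all compared genes with one. Irf7, Cmpk2, Oasl1 and Oasl2 have promoters in the table without these exact letters.

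Genes of the cell cycle were lower in DNAM-1+ cells of AML spleen. Of 38 mitosis and G2/M genes at 5 FPKM, 37 had a ratio below 0, 11 were at least 1.5-fold lower, none was 2-fold lower, and the median was -0.51. Cdk1, Ccnb1, Cenpe, Aurka, Ckap2l, Kif2c, Knl1 and Nuf2 were under 5 FPKM in AML cells, so their ratios could only be below 0. Of 36 S phase genes, 34 were below 0, 4 were at least 1.5-fold lower, and the median was -0.36. The same limit held for Clspn, E2f1, Cdc45, Pole and Ccne2. In DNAM-1- cells the medians were smaller, -0.14 over 26 mitosis genes and -0.16 over 30 S phase genes, with a single mitosis gene at 1.5-fold. Summed over the 46 listed mitosis genes, the level was 867 FPKM in DNAM-1+ normal cells and 612 in DNAM-1+ AML cells, against 409 and 368 in the DNAM-1- libraries. The DNAM-1+ normal library was the highest of the 4.

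Mki67, the proliferation antigen Ki-67, was at 63.3 FPKM in DNAM-1+ normal and 36.3 in DNAM-1+ AML cells (-0.78 ± 0.09), and at 22.7 and 16.8 in DNAM-1- cells (-0.41 ± 0.13). Cdca3, a trigger of mitotic entry, was at 22.8 and 12.1 FPKM (-0.86 ± 0.39). Kifc1, a minus-end kinesin of the spindle, was at 11.0 and 5.56 (-0.88 ± 0.41). Cdk1, the kinase that drives mitosis, was at 8.01 and 4.4 FPKM in DNAM-1+ cells (-0.74 ± 0.51) and at 1.61 and 2.44 in DNAM-1- cells, where the interval of 0.40 ± 0.87 includes 0. Cdca3 was also nearly level in DNAM-1- cells, at 6.25 and 5.89 FPKM. Top2a, the topoisomerase that untangles sister chromatids, was at 52.6 and 34.5 FPKM in DNAM-1+ cells (-0.60 ± 0.09), and Birc5, encoding survivin, at 25 and 14.8 (-0.72 ± 0.21).

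Among S phase genes, Clspn, the adaptor of the replication checkpoint, was at 9.64 and 4.95 FPKM (-0.84 ± 0.54). Uhrf1, which copies DNA methylation behind the fork, was at 18.4 and 10.3 (-0.78 ± 0.20). E2f1, the transcription factor of S phase entry, was at 6.98 and 3.78 (-0.74 ± 0.37), and the DNA ligase Lig1 at 28.6 and 18.2 (-0.62 ± 0.20). Pcna, the sliding clamp, was less different, at 151 and 126 FPKM (-0.26 ± 0.09). Of 38 listed replication-dependent histone genes, whose transcripts lack poly(A) tails, 4 reached 5 FPKM, and 3 of the 4 had a ratio above 0, opposite to the S phase list, with a median of 0.51. H1f2 was at 13.2 and 20.8 FPKM (0.61 ± 0.27), H2ac18 at 8.32 and 12.4 (0.52 ± 0.57) and H4c9 at 4.44 and 6.70 (0.50 ± 0.69). H2ac11 was at 5.58 and 2.77 FPKM (-0.80 ± 1.02), so that of the 4 only H1f2 lay beyond its counting interval, as defined above. In DNAM-1- cells 3 of 3 were above 0, with a median of 0.43.

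Windows of Mki67 (chr7:135716439-135716528, minus strand) and Cdk1 (chr10:69352913-69353002, minus strand, RefSeq GRCm38.p6) are shown for TTTGAA, the cell cycle homology region bound by the DREAM and B-MYB complexes, in capitals.
Mki67: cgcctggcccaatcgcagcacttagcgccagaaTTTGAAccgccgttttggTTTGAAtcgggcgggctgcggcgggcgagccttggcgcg
Cdk1: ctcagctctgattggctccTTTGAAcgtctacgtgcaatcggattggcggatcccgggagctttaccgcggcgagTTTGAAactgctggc
Each window held 2 copies. TTTGAA on either strand was found in 12 of 32 mitosis gene promoters (37.5%), in 4 of 31 S phase promoters (12.9%) and in 12.8% of all compared genes with a promoter. In the other lists searched the share ran from 8.0% (other immediate early genes) to 27.3% (interferon-stimulated genes). The CCAAT box, which does not overlap it in letters, was found in 24 of the 32 mitosis promoters (75%) and in 40.5% of all. Other lists ranged from 2 of 10 promoters (AP-1 genes) to 16 of 25 (other immediate early genes). S phase genes had the box in 19 of 31 promoters.

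DNAM-1+ cells of AML spleen held more mRNA of immediate early genes. Of 11 AP-1 genes at 5 FPKM, 9 were above 0, 2 were at least 1.5-fold higher and 1 was at least 2-fold higher, with a median log2 ratio of 0.20. Of 34 other immediate early genes, 28 were above 0 and 4 were at least 1.5-fold higher, with a median of 0.31. Egr2, Klf4 and Plk3 were under 5 FPKM in DNAM-1+ normal cells, so their ratios could only be above 0. In DNAM-1- cells the 2 medians were 0.05 and 0.03. The AP-1 genes summed to 934 FPKM in DNAM-1+ normal cells and to 1237, 1156 and 1222 in the DNAM-1+ AML, DNAM-1- normal and DNAM-1- AML libraries, so the DNAM-1+ normal library had the low sum and the other 3 sums lay close together. Most of each sum was Junb, which was highest in DNAM-1+ AML cells. Fos, Fosb, Jun and Atf3 were instead lower in DNAM-1+ AML cells than in either DNAM-1- library.

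Fos (NCBI Gene 14281) was at 18.3 FPKM in DNAM-1+ normal and 43.8 in DNAM-1+ AML cells (1.22 ± 0.18), and at 49.9 and 74.9 in DNAM-1- cells (0.58 ± 0.12). DNAM-1+ AML cells thus stayed below DNAM-1- cells of normal spleen. Its relative Fosb was at 11.1 and 20.4 FPKM (0.82 ± 0.19) in DNAM-1+ cells and at 27.2 and 30.6 in DNAM-1- cells (0.16 ± 0.13). The partners Junb, at 525 and 735 FPKM (0.48 ± 0.04), and Jun, at 66.4 and 92.0 (0.46 ± 0.09), were higher by less. In DNAM-1- cells Junb was at 608 and 656 FPKM and Jun at 116 and 108.

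Among the other immediate early genes, Zfp36l2, an RNA-binding protein that speeds the decay of AU-rich messages, was at 256 and 410 FPKM (0.68 ± 0.04). The step was nearly the same among DNAM-1- cells, from 277 to 420 FPKM (0.60 ± 0.04). The salt-inducible kinase Sik1 was at 10.6 and 17.3 FPKM (0.66 ± 0.17), the nuclear receptor Nr4a2 at 11.3 and 18.4 (0.66 ± 0.19), and Egr3, a zinc finger factor induced by calcium signals, at 7.40 and 12.1 (0.64 ± 0.27). In DNAM-1- cells their ratios were 0.05, 0.17 and -0.05. Nr4a1, the relative that reports antigen receptor signals in lymphocytes, was at 65.1 and 72.5 FPKM in DNAM-1+ cells (0.15 ± 0.10) and at 167 and 127 in DNAM-1- cells (-0.39 ± 0.07). Egr1 was at 27.5 and 38.7 FPKM in DNAM-1+ cells (0.48 ± 0.12).

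The MAP kinase phosphatases, which end the signal that induces these genes, followed in part. Of 9 such genes and Sprouty brakes, 7 were above 0, with a median of 0.28, or 0.12 when members down to 1 FPKM were included. Dusp2, the nuclear phosphatase of activated lymphocytes, was at 77.8 FPKM in DNAM-1+ normal and 142 in DNAM-1+ AML cells (0.86 ± 0.11), and at 98.4 and 150 in DNAM-1- cells (0.61 ± 0.10). Dusp1 was at 47.6 and 68.5 FPKM (0.52 ± 0.13) and Dusp5 at 124 and 157 (0.35 ± 0.07). Dusp22 went the other way, at 16.6 and 13.2 (-0.31 ± 0.23). B cells, dendritic cells and monocytes also express immediate early genes. The summed levels of the B cell, dendritic cell and non-classical monocyte lists were somewhat higher in the DNAM-1+ AML library, as given above, and their part in these ratios was not tested.

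The Fos promoter is shown for the cAMP response element core, TGACGT on either strand, at chr12:85473782-85473871 on the plus strand (RefSeq GRCm38.p6), with the match in capitals.
Fos: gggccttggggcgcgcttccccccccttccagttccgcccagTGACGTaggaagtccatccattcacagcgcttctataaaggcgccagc
The letters TGACGT occurred in 4 of 10 AP-1 promoters (40.0%), in 8 of 25 promoters of other immediate early genes (32.0%) and in 12.7% of all compared genes with a promoter. In the other lists searched the share ran from 3.1% (mitosis genes) to 19.4% (S phase genes). Fosb, Junb and Nr4a2 have promoters in the table without them.

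Cytokine and chemokine genes were mostly higher in AML spleen. Of 13 members at 5 FPKM, 11 were above 0 and 3 were at least 1.5-fold higher, with a median of 0.31 in DNAM-1+ cells and 0.05 over 15 members in DNAM-1- cells. Spp1, Ccl9 and Vegfa were under 5 FPKM in DNAM-1+ normal cells, so their DNAM-1+ ratios could only be above 0. Ccl4 was at 81.0 FPKM in DNAM-1+ normal and 152 in DNAM-1+ AML cells (0.91 ± 0.16), and at 151 and 134 in DNAM-1- cells (-0.17 ± 0.14). The DNAM-1+ normal library was again the low one of the 4. Ccl3, like Ccl4 an inflammatory chemokine, was at 164 and 256 FPKM (0.64 ± 0.11) and at 249 and 287 in DNAM-1- cells (0.21 ± 0.10). Spp1, encoding osteopontin, was at 2.42 and 6.36 FPKM (1.11 ± 0.60), just past 2-fold, and its ratio was 0.61 with 5 FPKM added. Xcl1, which attracts cross-presenting dendritic cells, was at 284 and 382 FPKM (0.43 ± 0.11), and Ifng was at 64.2 and 81.9 (0.35 ± 0.14). In DNAM-1- cells Xcl1 was at 167 and 162 FPKM and Ifng at 70.9 and 70.0. Myeloid cells also make Ccl3, Ccl4 and Spp1, and in the DNAM-1+ AML library Lyz2 (0.50), Csf1r (0.38), 15 of 21 non-classical monocyte genes and 18 of 21 dendritic cell genes were higher too. Their part in the chemokine ratios was not tested.

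**Figure D3:**
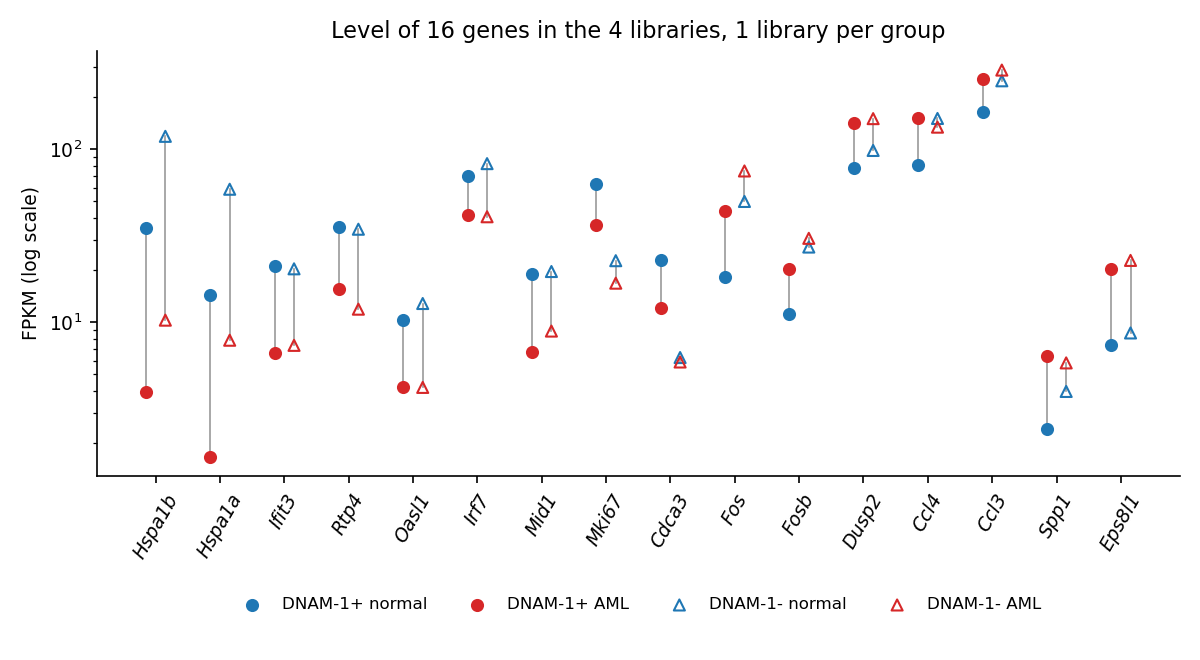
FPKM (log scale) of 16 genes in the 4 libraries, DNAM-1+ as filled circles and DNAM-1- as open triangles, normal in blue and AML in red, with a line joining normal to AML within a subset. Hspa1b, Hspa1a, Ifit3, Rtp4, Oasl1, Irf7, Mid1 and Mki67 were lower and Fos, Dusp2, Ccl3, Spp1 and Eps8l1 higher in AML in both subsets, while Ccl4 was higher in DNAM-1+ cells (81.0 to 152 FPKM) and slightly lower in DNAM-1- cells (151 to 134).

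NK identity, receptors and killing genes were nearly level. The 21 NK lineage genes had a median of 0.11 and none reached 1.5-fold, nor did any of 30 activating and costimulatory receptors (median -0.02) or 33 NK transcription factors (median 0.03). Eomes, the T-box factor of conventional NK cells, was at 221 and 212 FPKM, and Klrk1, encoding NKG2D, at 420 and 415. Of 25 cytotoxic granule and death ligand genes, 15 were above 0 and 10 below, with a median of 0.04. Prf1, encoding perforin, was at 498 and 571 FPKM (0.20 ± 0.04), while the abundant Gzma stood at 3885 and 3947 (0.02 ± 0.02). Gzmb was at 503 and 425 FPKM (-0.24 ± 0.05). Gzmc, a granzyme of strongly activated cells, was scarce, at 5.89 and 3.09 FPKM (-0.75 ± 0.71). Nkg7, a granule membrane protein, was at 465 and 663 FPKM (0.51 ± 0.07).

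Single receptors departed from this level pattern. Klra5, an inhibitory Ly49 receptor, was at 16.1 FPKM in DNAM-1+ normal and 8.10 in DNAM-1+ AML cells (-0.91 ± 0.39), and at 9.51 and 9.99 in DNAM-1- cells (0.06 ± 0.41). Ly49 genes are near copies of each other, so this value is uncertain. The checkpoint receptor Lag3 was at 8.26 and 12.8 FPKM (0.57 ± 0.30), just short of 1.5-fold, and Hcst, encoding the NKG2D adaptor DAP10, at 64.2 and 93.8 (0.54 ± 0.25). Of DNAM-1's partners and rivals for its ligands, Tigit was at 24.1 and 19.8 FPKM (-0.27 ± 0.31) and Cd96 at 45.2 and 52.0 (0.20 ± 0.13). Cxcr4, the bone marrow homing receptor, was at 41.8 and 62.0 FPKM (0.56 ± 0.17) and at 64.5 and 86.0 in DNAM-1- cells (0.41 ± 0.14).

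Maturation lists gave small shifts. The 25 genes of mature CD11b-positive NK cells had a median of 0.18, 19 of them above 0, in DNAM-1+ cells and 0.19 in DNAM-1- cells. The 19 genes of immature CD27-positive cells had medians of 0.01 and -0.09. Within them Kit, the stem cell factor receptor, was at 17.9 and 25.3 FPKM (0.48 ± 0.13), and the transcription factor Lef1 at 29.4 and 22.6 (-0.37 ± 0.15). Kit also belongs to the list of leukaemia and progenitor genes.

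**Figure D4:**
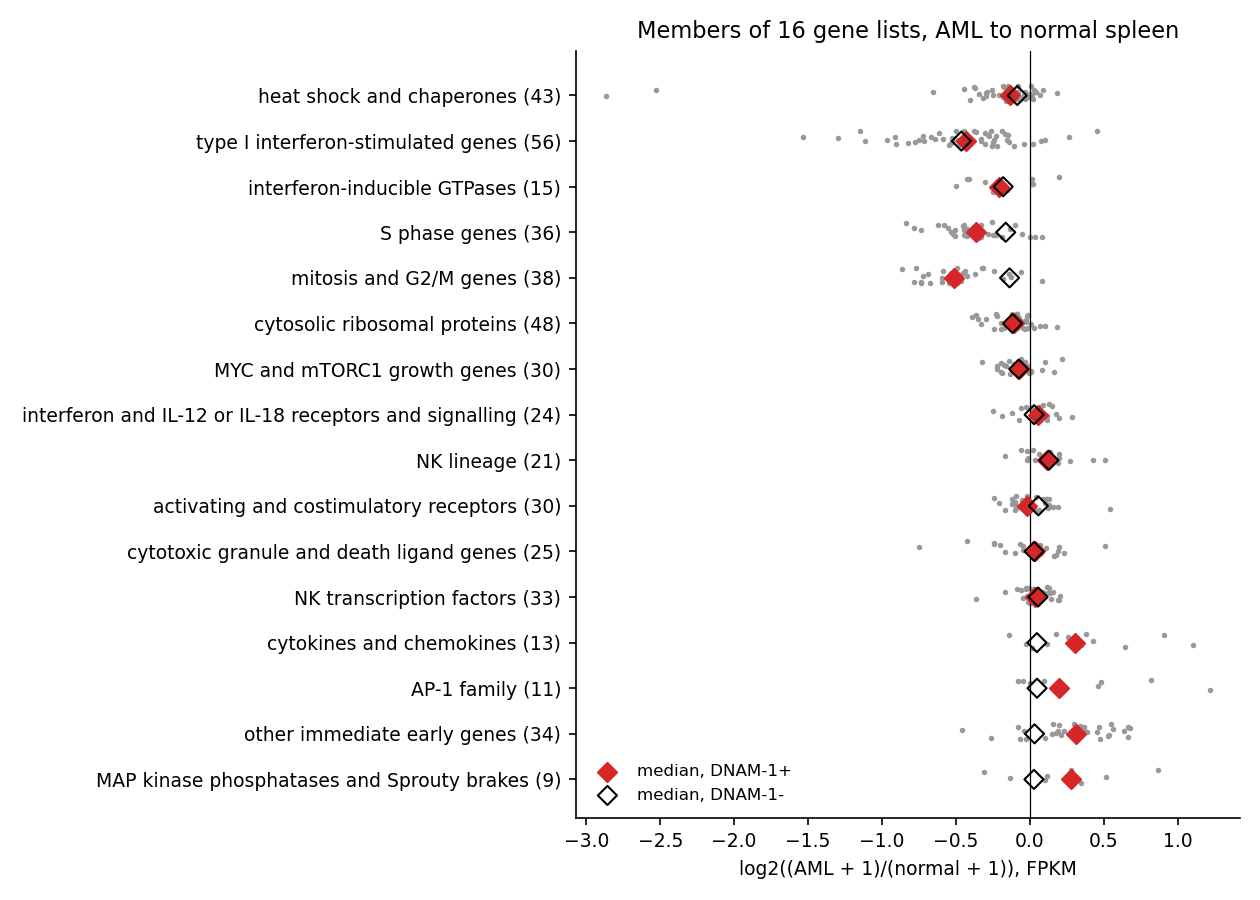
Grey points are the log2 ratios of the members of 16 gene lists in DNAM-1+ cells, with the number at 5 FPKM in brackets; red diamonds are their medians and open diamonds the medians of the same lists in DNAM-1- cells. Medians of mitosis (-0.51), interferon-stimulated (-0.43) and S phase genes (-0.36) lie lowest of the lists shown, those of other immediate early genes (0.31) and cytokines (0.31) highest, and the NK lists close to 0.

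Growth and metabolism lists differed little. Of 48 cytosolic ribosomal protein genes 43 were below 0, though the median was only -0.11 and none reached 1.5-fold, and Rpl23 was at 1060 FPKM in normal and 807 in AML cells (-0.39 ± 0.05). In DNAM-1- cells their median was -0.12. The 30 MYC and mTORC1 growth genes had a median of -0.07, 16 glycolysis genes 0.02 and 37 oxidative phosphorylation genes 0.02. Medians of the IL-15, TGF-beta, NF-kappaB, hypoxia, sterol, oxidative stress and unfolded protein lists lay between -0.06 and 0.11, and MHC class I presentation genes had a median of -0.01. Of the glucocorticoid targets, Sgk1, a kinase of ion transport, was at 21.6 and 36.2 FPKM (0.72 ± 0.17), Tsc22d3, encoding GILZ, at 52.3 and 75.2 (0.52 ± 0.14), and Fkbp5, given above, was lower.

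Genes outside these lists included the highest ratio of all. Eps8l1 (NCBI Gene 67425), a relative of the actin regulator EPS8, was at 7.35 FPKM in DNAM-1+ normal and 20.2 in DNAM-1+ AML cells (1.34 ± 0.50), and at 8.67 and 22.8 in DNAM-1- cells (1.30 ± 0.47). Both AML libraries were above both normal ones, and the ratio in DNAM-1+ cells stayed past 2-fold with 5 FPKM added (1.03). Oaz1, antizyme of polyamine synthesis, was at 47.9 and 90.9 FPKM (0.91 ± 0.20) in DNAM-1+ cells and at 72.9 and 78.4 in DNAM-1- cells. Blvrb, a biliverdin reductase, was at 5.15 and 10.4 FPKM (0.89 ± 0.56), and Bcl2a1d, an anti-apoptotic BCL2 relative with near-identical copies, at 5.39 and 10.3 (0.82 ± 0.55). Both were higher in the DNAM-1- libraries, Blvrb at 15.4 and 14.9 FPKM and Bcl2a1d at 16.4 and 13.5. Evi2 was at 6.46 and 12 FPKM (0.80 ± 0.23), the mitochondrial import factor Chchd4 at 2.91 and 5.72 (0.78 ± 0.37), and E2f5, an E2F repressor, at 2.66 and 5.44 (0.82 ± 0.53). The ratios of Grhpr (0.74 ± 0.87) and Rarres2 (0.74 ± 0.74), with 1 FPKM added, were within their counting intervals. Both genes are low enough for the added 1 FPKM to matter to that call.

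On the lower side, Mid1, a microtubule-bound ubiquitin ligase, was at 19.1 and 6.77 FPKM (-1.37 ± 0.22) in DNAM-1+ cells and at 19.6 and 8.89 in DNAM-1- cells (-1.06 ± 0.20). Amer2 was at 13.1 FPKM in DNAM-1+ normal and 4.18 in DNAM-1- normal cells and was listed at 0 in both AML libraries. An exact 0 in these files can be a failed estimate, so no fold is given for it. Tmsb15a, a thymosin of actin binding with a short transcript, was at 5.28 and 1.65 FPKM (-1.25 ± 1.31), within its counting interval. Its ratio was -0.63 with 5 FPKM added and -1.62, past that width, with 0.1 FPKM added. S100a9, the calprotectin subunit of neutrophils, was at 42.9 and 23.7 FPKM (-0.83 ± 0.35) in DNAM-1+ cells and at 68.3 and 51.5 in DNAM-1- cells (-0.40 ± 0.25).

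Of the 31 genes at least 1.5-fold higher, 15 belonged to a list, among them 4 other immediate early genes, 3 cytokines or chemokines and 2 AP-1 genes, and 2 were on a list of another cell type. H2-Aa, an MHC class II chain, stood lowest inside that threshold, at 84.1 and 127 FPKM (0.59), and Lag3 (0.57) just outside it. Of the 81 genes at least 1.5-fold lower, 38 belonged to a list, with 15 interferon-stimulated, 15 S phase or mitosis and 3 heat shock genes, and 3 were on a list of another cell type. Lgals3bp, at 169 and 112 FPKM, was the last inside the lower threshold, and Ifih1, an RNA sensor at 7.08 and 4.39, the first outside it. At the 2-fold threshold Spp1 (1.11) was the last gene inside and Oaz1 (0.91) the first outside on the higher side, and Cmpk2 (-0.96) the first outside on the lower side.

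The same contrast in DNAM-1- cells gave 2 genes at least 2-fold higher (0.0237% of 8443) and 17 at least 2-fold lower (0.201%), with 14 (0.166%) and 63 (0.746%) at 1.5-fold. At least 2-fold higher in both subsets was Eps8l1 alone, 33.3% of the DNAM-1+ list and 50% of the DNAM-1- list. At least 2-fold lower in both were 7 genes, 63.6% and 41.2% of the lists: Hspa1b, Hspa1a, Ifit3, Oasl2, Rtp4, Oasl1 and Mid1. At 1.5-fold the subsets shared 4 higher genes (12.9% and 28.6% of the lists) and 22 lower ones (27.2% and 34.9%), and 1 gene, Pradc1, was opposite. Of the 81 genes 1.5-fold lower in DNAM-1+ cells, 72 were below 0 in DNAM-1- cells, with a median of -0.33 there. Of the 31 higher ones, 20 were above 0 in DNAM-1- cells, with a median of 0.09. The shares to set beside these 2 counts are those of all 8443 genes compared in DNAM-1- cells. Of these, 49.98% had a ratio above 0 and 49.72% below. The count of higher genes was therefore nearer to its share than the count of lower genes. Across 8109 genes at 5 FPKM in both contrasts the ratios correlated with a Pearson r of 0.40 and a Spearman rho of 0.29, as a description, since genes are not independent replicates and the libraries of a spleen may share mice or handling. The difference between the subsets has no test in this design.

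**Figure D5:**
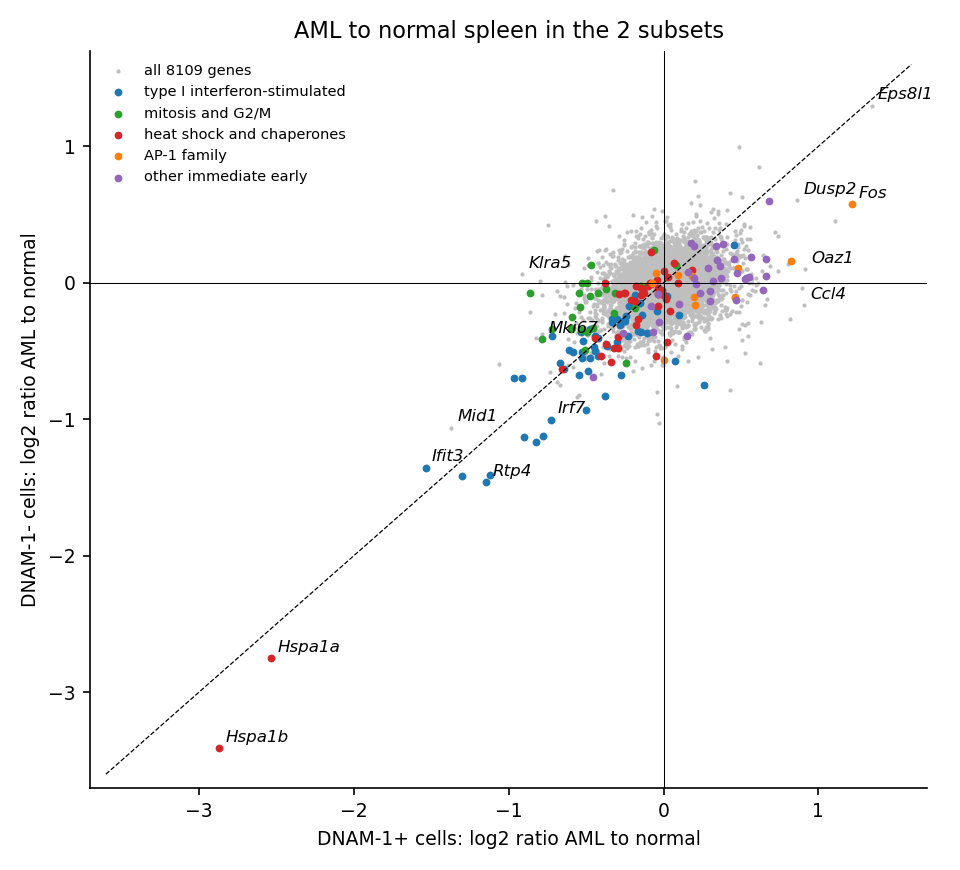
Each point is 1 of 8109 genes, with its log2 ratio of AML to normal in DNAM-1+ cells on the horizontal and in DNAM-1- cells on the vertical axis; the dashed line marks equal ratios. Hsp70 and interferon-stimulated genes lie near that line at the lower left, Eps8l1 (1.34 and 1.30) at the upper right, and Fos (1.22 and 0.58), Ccl4 (0.91 and -0.17) and Mki67 (-0.78 and -0.41) lie toward the DNAM-1+ axis.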

How the data were processed

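RNA from sorted NK cells was sequenced on the BGISEQ-500 platform, 1 library per group, with an RNeasy kit used for extraction per the labels' protocols. The deposited values are FPKM per gene, per the file headers, under NCBI Gene numbers. Bowtie2 2.2.5 and RSEM are named in the submitters' processing notes; their roles, the build and the annotation are not given in the sources used here. Genes absent from a file were set to 0. Names and biotypes came from the RefSeq table of GRCm38.p6, which matched 17668 of 17723 gene numbers. Estimates for near-identical genes can be split between copies.

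Ratios were computed with Python 3.11.15 and pandas 2.3.3. Depth was estimated from the steps between low FPKM values of microRNA genes (55 to 100 nt long); 91.9% to 95.6% of those values lay within 0.1 step of a whole number of up to 6 reads. It gave counting intervals with coding transcript lengths from GENCODE vM21. At 5 FPKM on 2000 nt the interval is ± 0.43. The counting was tested on simulated data.

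Members and gene lists were chosen with earlier results of these data known. Named genes are Cd226, Ncr1 and Klrb1c, Hspa1b, Ifit3, Eps8l1 and Fos, the 15 highest and 15 lowest ratios without predicted names, up to 4 members per list with the largest ratios, the 2 most abundant markers per other cell type and the genes 2-fold in both subsets. Hspa8, Dnajb1, Irf7, Irf9, Isg15, Ifnar1, Top2a, Birc5, Pcna, Egr1, Nr4a1, Ifng, Prf1, Gzma, Gzmb, Eomes, Klrk1, Pradc1, Mx1, Csf1r and the genes at thresholds were added after their values were seen. Other pseudocounts, floors, gene sets and scalings were tried.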

Additional observations from a re-analysis of the deposited data

Results flagged for a closer look

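Ccl4 was the only named gene at least 1.5-fold different in DNAM-1+ cells whose ratio had the opposite sign in DNAM-1- cells with both ratios beyond their counting intervals. It was at 81.0 FPKM in normal and 152 in AML spleen in DNAM-1+ cells, and at 151 and 134 in DNAM-1- cells, so that the log2 ratios differed by 1.07. That difference was not tested, because each group holds 1 library.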

How the results depend on the processing

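Among the 170 named genes, no log2 ratio at 1.5-fold or more reversed under pseudocounts of 0.1 and 5 FPKM, centring on the median gene or equal FPKM sums. A pseudocount cannot change the sign of a ratio, so only centring and equal sums could have reversed any. No median of the 51 lists reached 1.5-fold, so the check for reversal could not apply to them. Over both subsets, 6 list medians moved by 0.1 or more with a floor of 1 FPKM, and 2 with a pseudocount of 5 FPKM. Centring and equal sums, and keeping genes listed in both libraries, left all 12 counts within 1.5 times. With a floor of 1 FPKM, genes 2-fold higher and lower in DNAM-1+ cells numbered 18 and 24, and 1.5-fold 87 and 151; in DNAM-1- cells 14 and 34, and 47 and 140; shared were 5 higher at 2-fold, and 11 and 34 at 1.5-fold. With a floor of 20 FPKM, DNAM-1+ counts were 3 lower at 2-fold and 13 and 16 at 1.5-fold; DNAM-1- counts 1 and 5, and 6 and 17; shared lower genes 3 and 7. With all gene types, DNAM-1+ counts were 27 and 30 at 2-fold and 73 higher at 1.5-fold; DNAM-1- counts 17 and 35, and 45 and 103; shared higher genes 3 and 12. Of 59 microRNA genes at the floor, 18 were 2-fold higher and 8 lower. With a pseudocount of 5 FPKM, DNAM-1+ counts were 5 lower at 2-fold and 12 and 25 at 1.5-fold; DNAM-1- counts 1 and 5, and 7 and 26; shared lower genes 3 and 10. A pseudocount of 0.1 FPKM gave 5 and 4 genes 2-fold higher in DNAM-1+ and DNAM-1- cells. Without genes of other cell types, 1 gene was 2-fold higher in DNAM-1- cells. By construction, a higher floor or pseudocount removes or shrinks genes of low level. No paired analysis was possible because each group holds 1 library. Depth limits genes near 5 FPKM, and error between mice is unknown.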
